A study of Homo sapiens with 10 samples.

Results

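FN1, VIM, TIMP1 and IQGAP1 were described across 10 clones of PC-3, an established human prostate cancer line that came from a bone metastasis. They encode fibronectin, vimentin, the metalloproteinase inhibitor TIMP1 and the cytoskeletal scaffold IQGAP1. Each gene was taken as the row of the deposited array table that the platform table names after it, and VIM, with 3 such rows, as the row of highest mean. These 4 genes stand among 14884 named genes. They were chosen with the comparison of CENPU and control clones in view, so their differences are a description and carry no test.

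The clones came from PC-3 cells that had received a lentiviral vector, either empty (5 control clones, numbers 1 to 5) or carrying the centromere gene CENPU (5 CENPU clones, numbers 1, 4, 5, 7 and 13). Both kinds of cell had been selected with blasticidin, and each clone gave 1 Affymetrix array of total RNA. A clone is the progeny of 1 cell, so every difference between the groups rests on 5 isolates of each kind. Levels are log2 expression values after RMA, a method that corrects background, equalises the arrays and sums up the probes of a row. A difference of 1 on this scale is a 2-fold change. Array medians lay between 4.62 and 4.76. CENPU itself was measured at 8.70 to 9.84 in the CENPU clones and at 5.78 to 6.56 in the control clones, so every clone matched its label.

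Fibronectin is a large secreted glycoprotein that cells assemble into fibrils, and integrins and syndecans on the cell surface bind it. Vimentin forms intermediate filaments in mesenchymal cells and in many carcinoma lines, TIMP1 blocks matrix metalloproteinases, and IQGAP1 ties the small GTPases CDC42 and RAC1 to actin at the leading edge of migrating cells. Fibronectin and vimentin are widely used as markers of the mesenchymal state.

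The region before each gene's start is shown as a description of the 4 genes, of which 3 were higher and 1 lower in CENPU clones. No link between this region and the differences between clones was tested. The letters are the 250 bases before the start in RefSeq (GRCh38.p14), 5′ to 3′ on the strand of the gene, and capitals mark matches to the motifs searched.
FN1 promoter, chr2:215436069-215436318, minus strand: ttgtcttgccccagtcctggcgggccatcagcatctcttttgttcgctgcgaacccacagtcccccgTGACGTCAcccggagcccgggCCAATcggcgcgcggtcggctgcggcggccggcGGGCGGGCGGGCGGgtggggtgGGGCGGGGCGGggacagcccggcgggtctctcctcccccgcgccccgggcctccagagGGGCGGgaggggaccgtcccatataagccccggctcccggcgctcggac
IQGAP1 promoter, chr15:90387992-90388241, plus strand: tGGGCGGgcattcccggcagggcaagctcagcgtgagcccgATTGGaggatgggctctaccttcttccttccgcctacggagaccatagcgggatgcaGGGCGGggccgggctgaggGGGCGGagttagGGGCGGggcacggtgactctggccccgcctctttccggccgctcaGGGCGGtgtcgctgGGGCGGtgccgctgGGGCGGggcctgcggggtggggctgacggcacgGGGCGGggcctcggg
VIM promoter, chr10:17227991-17228240, plus strand: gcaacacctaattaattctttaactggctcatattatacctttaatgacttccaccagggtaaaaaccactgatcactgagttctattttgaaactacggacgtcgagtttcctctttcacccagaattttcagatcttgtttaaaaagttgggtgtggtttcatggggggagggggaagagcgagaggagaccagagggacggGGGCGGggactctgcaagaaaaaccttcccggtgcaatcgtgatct
TIMP1 promoter, chrX:47582186-47582435, plus strand: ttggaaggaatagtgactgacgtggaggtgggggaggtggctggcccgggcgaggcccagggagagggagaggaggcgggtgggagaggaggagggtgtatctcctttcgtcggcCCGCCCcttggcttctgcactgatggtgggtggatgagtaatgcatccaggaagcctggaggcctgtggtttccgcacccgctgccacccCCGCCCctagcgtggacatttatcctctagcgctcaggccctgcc
Both strands were searched. The AP-1 motif was read as TGACTCA and the cyclic AMP response element as its first 7 letters, TGACGTC. The GC box was read as GGGCGG and the box bound by the TATA-binding protein as the letters TATAAA. The E-box of MYC was read as CACGTG, and that of ZEB and Snail factors as the letters CACCTG. The box bound by NF-Y was read as CCAAT.

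The FN1 window held 6 GC boxes, of which those 129, 125 and 121 bases before the start overlap, as do those at 107 and 102. It was the 1 window of the 4 with a match to the cyclic AMP response element, 183 bases before the start and, 1 base over, again on the other strand. That motif occurs in 3.12% of 35116 RefSeq promoters of the same length. IQGAP1 had 8 GC boxes, TIMP1 had 2 and VIM had 1, and 42.6% of all promoters hold at least 1. CCAAT was found once each in FN1 and IQGAP1, as in 32.0% of all promoters. No window held the exact letters read as the AP-1 motif, the TATA box, the MYC E-box or the ZEB and Snail E-box. In that order, these letters occur in 4.20%, 10.7%, 6.34% and 17.5% of promoters. Variants of the motifs were not searched, so a window may hold one that was not counted. G and C made up 76.4% of the FN1 window, 74.4% of IQGAP1, 64.8% of TIMP1 and 46.0% of VIM, against a median of 58.0% over all promoters.

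FN1, the fibronectin gene, had the largest difference in means of the 4 genes. CENPU 13 read 11.16, CENPU 7 read 10.84, CENPU 5 read 9.68, CENPU 1 read 9.43 and CENPU 4 read 9.02. Control 1 read 8.58, control 5 read 8.10, control 3 read 7.97, control 4 read 7.75 and control 2 read 6.72. Every CENPU clone thus lay above every control clone, but only 0.44 separated CENPU 4 from control 1, and the clones within each group were spread widely. The means were 10.03 ± 0.93 (SD, n = 5) and 7.82 ± 0.69 (SD, n = 5), a log2 difference of 2.21 or 4.61-fold. That difference ranked 4 among the rises of all 14884 genes. It was 1.28 without control 2, CENPU 7 and CENPU 13. These were the lowest control and the highest CENPU clones for FN1, so leaving them out had to lower the difference.

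IQGAP1, the scaffold gene, was also higher in every CENPU clone. CENPU 13 gave 9.35, CENPU 7 gave 9.08, CENPU 5 gave 8.82, CENPU 4 gave 8.65 and CENPU 1 gave 7.87. Control 3 gave 7.34, control 5 gave 7.15, control 1 gave 7.14, control 4 gave 7.13 and control 2 gave 6.65. CENPU 1 stood nearest the controls, 0.53 above control 3, and controls 1, 4 and 5 were within 0.02 of each other. The means of 8.75 ± 0.56 (SD, n = 5) and 7.08 ± 0.26 (SD, n = 5) differed by 1.67, or 3.19-fold, which ranked 14 among the rises. Without control 2, CENPU 7 and CENPU 13 the difference was 1.26. As for FN1, these were the lowest control and the highest CENPU clones, so a smaller difference had to follow.

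VIM, the vimentin gene, differed less but with tight groups. CENPU 4 stood at 8.75, CENPU 13 at 8.60, CENPU 5 at 8.51, CENPU 1 at 8.48 and CENPU 7 at 8.26. Control 5 stood at 7.93, control 4 at 7.92, control 1 at 7.87, control 3 at 7.63 and control 2 at 7.58. The order differed from that of FN1, for CENPU 4 was now the highest clone and CENPU 7 the lowest of its group. Means of 8.52 ± 0.18 (SD, n = 5) and 7.79 ± 0.17 (SD, n = 5) gave a log2 difference of 0.74, or 1.67-fold, at rank 825 among the rises. The difference was 0.74 without control 2, CENPU 7 and CENPU 13.

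The platform table names 2 further rows VIM, and both had higher means in CENPU clones. Probe set 16712274 had means of 7.52 ± 0.47 (SD, n = 5) with CENPU and 6.34 ± 0.16 (SD, n = 5) without, a difference of 1.17, and its groups did not overlap. Probe set 16712272 averaged 7.72 ± 0.60 (SD, n = 5) against 7.02 ± 0.20 (SD, n = 5), a difference of 0.70, and CENPU 7 at 7.06 lay below control 2 at 7.32. CENPU 4 was the highest clone and CENPU 7 the lowest CENPU clone in all 3 rows. In RefSeq the long non-coding gene VIM-AS1 overlaps VIM. No source used here gives the strand that each row detects. Probe sets 16712272 and 16712274 may detect VIM-AS1 in place of VIM. Signal of these 2 genes cannot be told apart in these rows.

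TIMP1 was the 1 gene of the 4 that was lower in CENPU clones. CENPU 7 measured 10.59, CENPU 4 measured 10.52, CENPU 13 measured 10.21, CENPU 5 measured 10.05 and CENPU 1 measured 9.75. Control 3 measured 11.32, control 4 measured 11.14, control 2 measured 11.08, control 5 measured 10.96 and control 1 measured 10.81. The groups did not overlap, and 0.22 lay between CENPU 7 and control 1. Means of 10.22 ± 0.34 (SD, n = 5) and 11.06 ± 0.19 (SD, n = 5) gave a log2 difference of -0.84, so that the level was 1.79-fold lower, at rank 64 among the falls. The difference was -0.95 without control 2, CENPU 7 and CENPU 13.

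**Figure D1:**
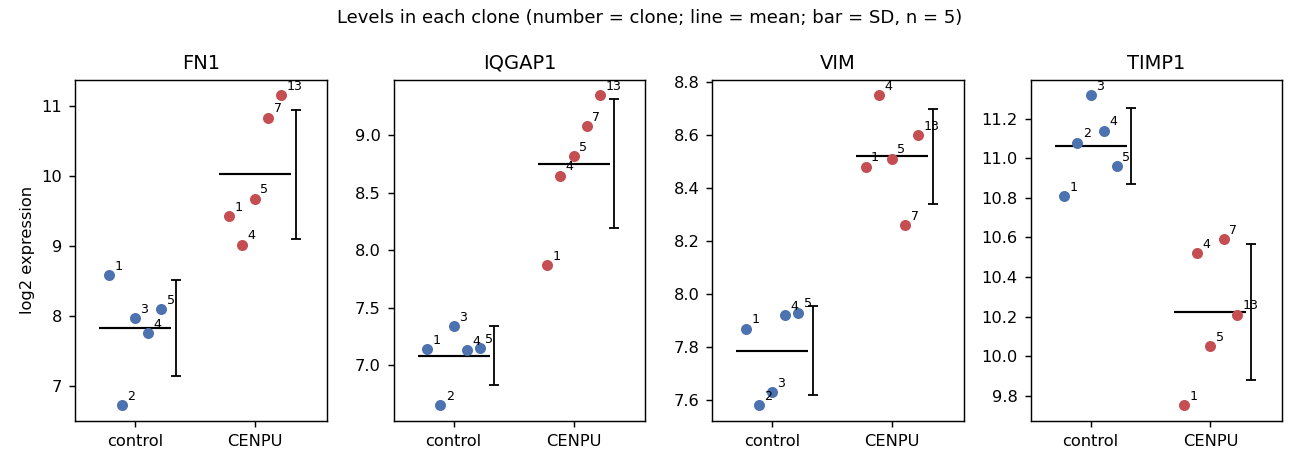
Log2 expression of FN1, IQGAP1, VIM and TIMP1 in each of 5 control and 5 CENPU clones, with the group mean as a line and the SD as a bar (n = 5). Each panel has its own axis. The groups do not overlap in any panel, and the CENPU clones of FN1 run from 9.02 to 11.16 while those of VIM run from 8.26 to 8.75.

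**Figure D2:**
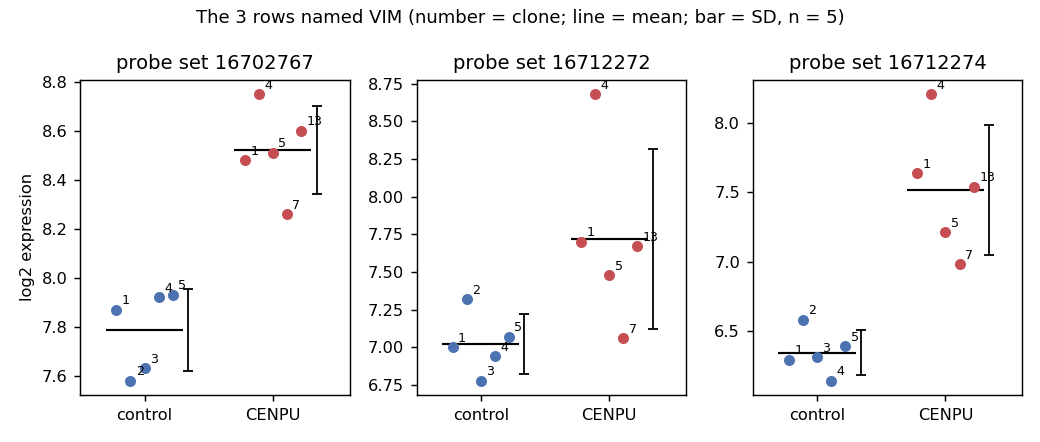
Log2 expression in the 3 rows that the platform table names VIM, by clone, with group means and SD (n = 5). CENPU 4 is the highest point in each panel, and the groups overlap in probe set 16712272 only.

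All 4 genes had groups that did not overlap, 3 with CENPU higher and 1 with CENPU lower. That property held for 9.73% of the 14884 genes, 4.54% with CENPU higher and 5.19% with CENPU lower, and the 4 genes had been chosen on this contrast. As 1 array was made per clone, neighbouring clones in these orders cannot be told apart from repeat measurements. In RefSeq TIMP1 overlaps SYN1 and FN1 overlaps ATIC and FN1-DT, whereas the table lists no gene that overlaps IQGAP1. SYN1 had a log2 difference of -0.03 (limma, Benjamini-Hochberg adjusted p = 0.901) and ATIC one of 0.37 (limma adjusted p = 0.158). In bulk RNA of a clone, more cells that express a gene and more RNA per cell cannot be told apart.

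Within the groups the 4 genes parted into those that varied together and those that did not. Deviations of each clone from its group mean were compared, so that the difference between the groups had no part in the value. FN1 and IQGAP1 had a Pearson correlation of these deviations of 0.75 over the 10 clones, while FN1 and VIM had -0.01 and FN1 and TIMP1 had 0.06. IQGAP1 had 0.08 with VIM and 0.54 with TIMP1, and VIM had -0.20 with TIMP1. For levels, which hold the group difference as well, FN1 and IQGAP1 had r = 0.93 (Spearman 0.94), FN1 and VIM r = 0.77 (Spearman 0.78) and FN1 and TIMP1 r = -0.70 (Spearman -0.81). With CENPU, the deviations of VIM gave 0.55, FN1 0.49, IQGAP1 0.31 and TIMP1 0.05. These correlations describe the same 10 arrays and carry no p.

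The clones also differed in a trend with gene length, and FN1 and IQGAP1 moved with it. In each clone the deviation of every protein-coding gene from its mean over the 10 clones was set against the genomic span of the gene in RefSeq, which gave 1 Spearman correlation per clone. It was highest in CENPU 13 (0.360), CENPU 7 (0.316) and CENPU 5 (0.197), then -0.0358 in CENPU 4 and -0.160 in CENPU 1. Control 1 had -0.0934, control 3 had -0.163, control 5 had -0.165, control 4 had -0.279 and control 2 had -0.355. The deviations of FN1 from its group means correlated with those of this trend at 0.87 and the deviations of IQGAP1 at 0.91, against -0.10 for VIM and 0.28 for TIMP1. FN1 was lowest in control 2, at the low end of the trend, and highest in CENPU 13, at its high end, and so was IQGAP1.

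IQGAP1 belongs to the longest quintile of protein-coding genes by span and FN1 to quintile 4, while VIM lies in quintile 2 and TIMP1 in quintile 1, the shortest. In the quintile of IQGAP1 11.5% of genes were called higher in CENPU clones and 1.72% lower (limma, adjusted p under 0.05), with a median log2 difference of 0.13. Quintile 4 had 8.27% higher and 3.90% lower, with a median of 0.08. In the quintile of VIM 3.27% were higher and 7.76% lower (median -0.07), so that VIM differed in the direction less common among genes of its length. In that of TIMP1 2.18% were higher and 8.39% lower (median -0.11). With the trend removed from each array by loess on log10 span, the log2 differences were 2.03 for FN1, 1.47 for IQGAP1, 0.79 for VIM and -0.75 for TIMP1, and the groups of all 4 still did not overlap. The part of whatever set this order of the clones in the FN1 and IQGAP1 differences was not tested beyond these values.

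**Figure D3:**
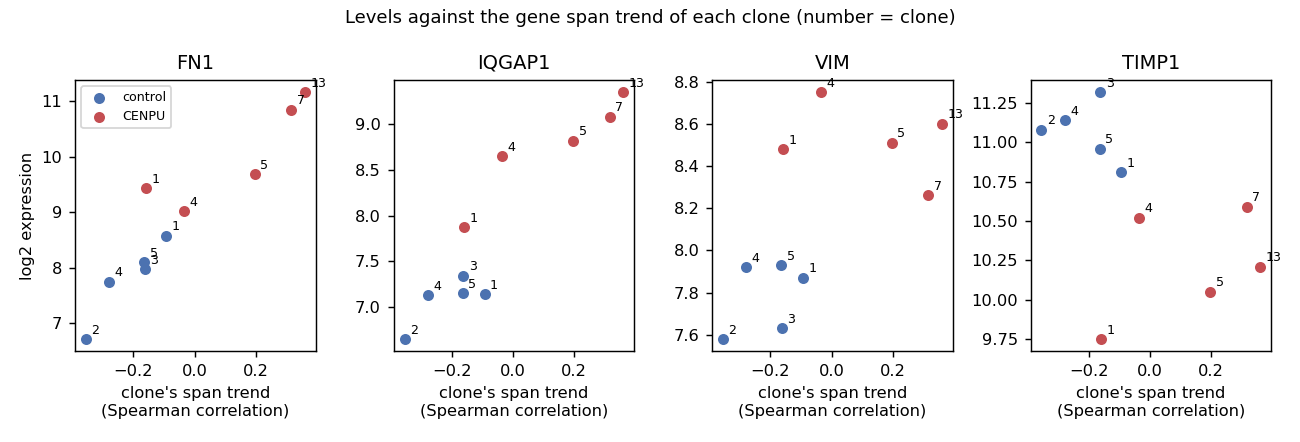
Log2 expression of the 4 genes (vertical axes) against each clone's gene span trend (horizontal axes, the Spearman correlation between gene span and deviation from the mean of 10 clones), with control clones in blue and CENPU clones in red. CENPU 13 lies highest and control 2 lowest in both axes for FN1 and IQGAP1, while for VIM the highest clone is CENPU 4, in the middle of the trend.

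The genes most like each of the 4 were sought by Pearson correlation of levels over the 10 clones, among 11915 other protein-coding genes. For FN1 they were CFL2, an actin-severing cofilin (r = 0.993), ARHGAP24, a GTPase-activating protein for Rac (0.986), ANAPC1, a subunit of the anaphase-promoting complex (0.986), and GDI2, which keeps Rab proteins soluble (0.985). Their deviations from group means correlated with those of FN1 at 0.98, 0.97, 0.95 and 0.96. For IQGAP1 they were the tRNA synthetase gene EPRS1 (0.997), the RNA helicase gene AQR (0.994), WASHC5 of the WASH complex (0.992) and the initiation factor gene EIF4B (0.988), with 0.98, 0.97, 0.98 and 0.94 for deviations. These 8 genes moved with the span trend as well, at 0.82 to 0.96 for deviations. EPRS1 averaged 10.03 in CENPU and 7.93 in control clones, AQR 8.65 and 6.81, and WASHC5 9.18 and 7.43.

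VIM was most like MED12, a Mediator subunit (r = 0.963), PRICKLE1 of planar cell polarity (0.962), the large scaffold gene AHNAK (0.955) and the inositol phosphate kinase gene PPIP5K1 (0.954). TIMP1 was most like SDC4, a fibronectin co-receptor (0.960), KLHL29 (0.959), PMPCA of the mitochondrial processing peptidase (0.953) and MAFG, a small MAF factor (0.949). Correlations of deviations with their member were lower here, 0.67 to 0.82 around VIM and 0.82 to 0.86 around TIMP1. A correlation of at least 0.9 was reached by 822 genes for FN1, 517 for IQGAP1, 40 for TIMP1 and 34 for VIM. With 10 clones in 2 groups, any pair of genes that differ between the groups gains from that difference.

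None of the 8 measured paralogues of these genes passed in limma (adjusted p from 0.112 to 0.996), and 1 had an unadjusted p under 0.05. Over all genes 10.1% passed, so the absence of calls among 8 genes does not set the paralogues apart. IQGAP3, the paralogue of IQGAP1 known from dividing cells, had means of 8.08 ± 0.35 (SD, n = 5) with CENPU and 7.56 ± 0.33 (SD, n = 5) without, a difference of 0.51. Its groups overlapped, with CENPU 5 at 7.70 and control 5 at 7.84. IQGAP2 differed by 0.30, with 4.57 in CENPU 5 and 3.56 to 3.76 in the other CENPU clones. The other metalloproteinase inhibitors TIMP2, TIMP3 and TIMP4 differed by -0.21, -0.05 and 0.26. TIMP2 averaged 9.90 ± 0.15 (SD, n = 5) against 10.11 ± 0.11 (SD, n = 5) and passed, at adjusted p = 0.0196, only with the span trend removed; its adjusted p over all alternatives ran from 0.0196 to 0.354. The genes of the other type III filament proteins, DES (desmin), GFAP and PRPH (peripherin), differed by 0.28, -0.25 and 0.00. Differences between a member and its paralogue were not tested.

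**Figure D4:**
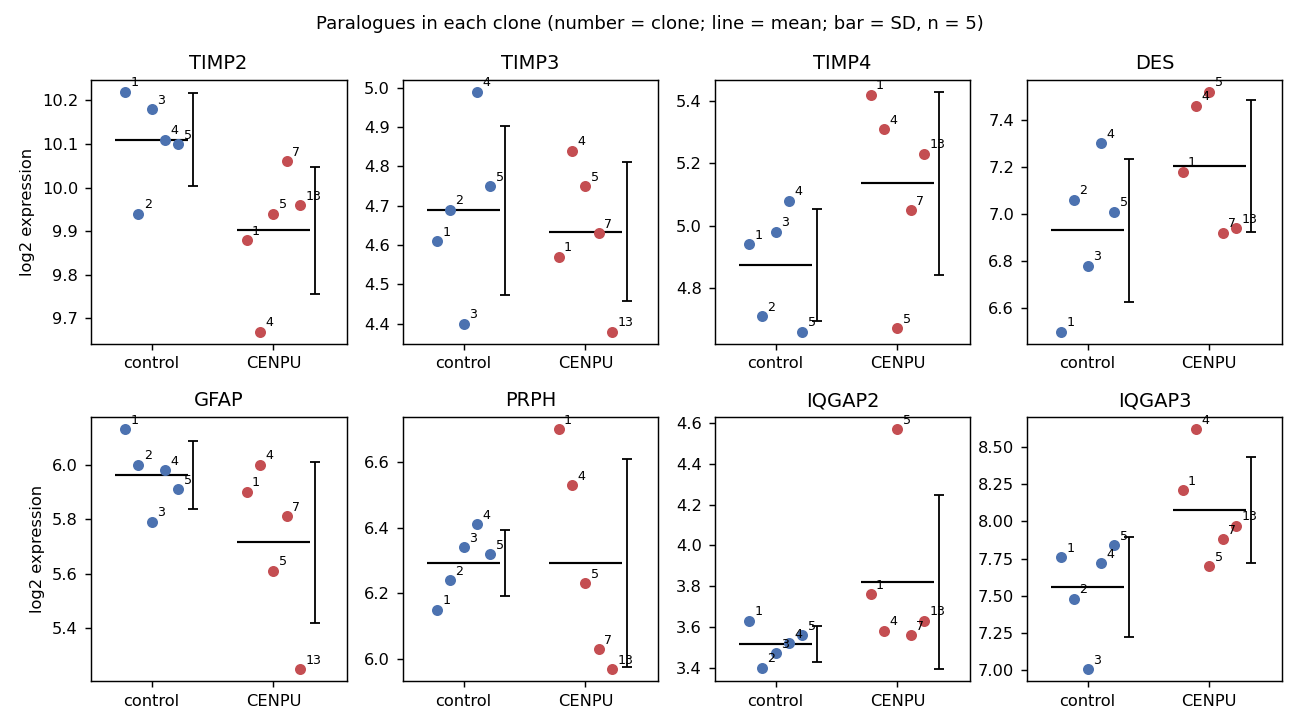
Log2 expression of 3 TIMP genes, 3 type III intermediate filament genes and 2 IQGAP genes by clone, with group means and SD (n = 5). The groups overlap in all 8 panels.

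The pathways around the 4 genes were followed in 10 fixed lists of 242 genes, of which 150 were measured in named rows. Rows with no gene symbol or with several symbols were not used, so a listed gene without a named row may still be on the array. In limma, with Benjamini-Hochberg adjustment over all 16098 named rows, 11 of the 150 rose and 5 fell in CENPU clones. That is 10.7% of the listed genes, against 10.1% of all genes, with 7.33% higher against 5.31% and 3.33% lower against 4.79%. The single lists are small, and no test set their counts against the share over all genes. The median log2 difference of the listed genes was 0.05 and that of all genes -0.02. The counts turned on single clones, and so did the count over all 14884 genes. Of these, 1504 passed with all clones, 2471 without CENPU 1 and 613 without control 4. Among the listed genes, 21 rose and 11 fell without CENPU 1. Without CENPU 13, control 2, control 3 or control 4, 6 rose, and 7 did without control 5. The number that fell was 2 without CENPU 5, control 2 or control 3, and 3 without CENPU 13 or control 4. Without control 2, CENPU 7 and CENPU 13 together, 4 rose and 4 fell, and with the span trend removed 6 rose and 8 fell. The fit without control 2, CENPU 7 and CENPU 13 has fewer clones, so a gene can lose its call there without a smaller difference.

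**Figure D5:**
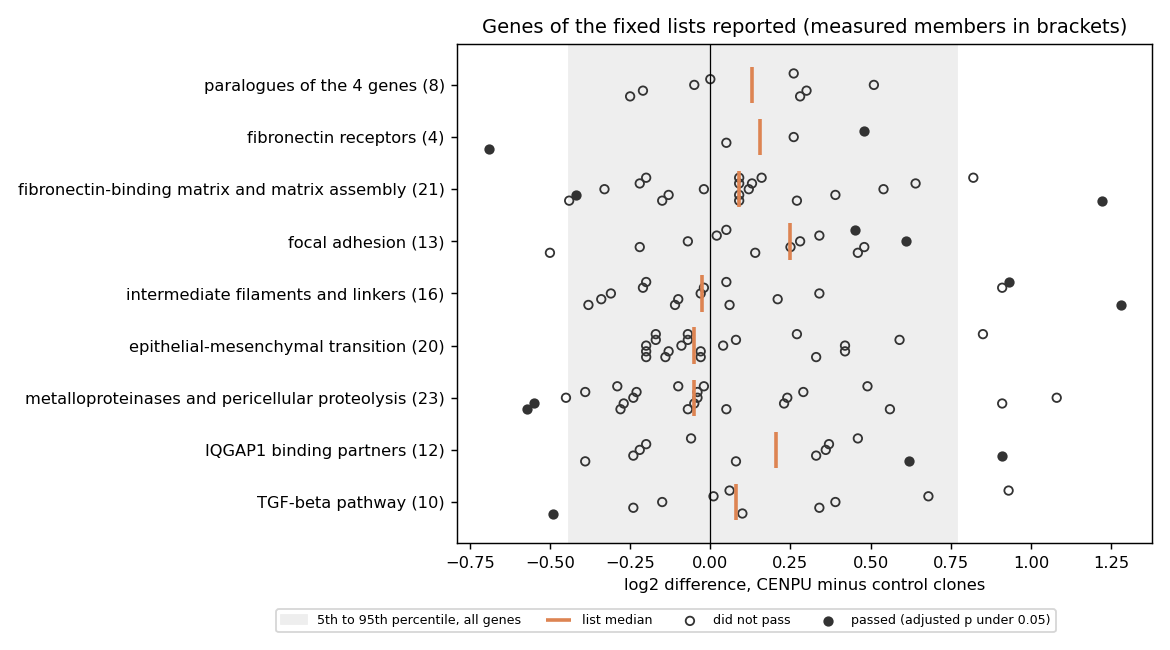
Log2 difference of CENPU minus control clones (horizontal axis) for each measured gene of the lists reported, with filled points for genes that passed in limma (adjusted p under 0.05), a bar at the list median and the range from -0.44 to 0.77 that holds the 5th to 95th percentile of all genes shaded. Filled points occur on both sides of 0, and the list medians lie between -0.05 and 0.25.

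Of 16 receptor genes for fibronectin, 4 had a named row, and the integrins were not among them. SDC4, the syndecan that acts with integrins on fibronectin, fell from 11.29 ± 0.17 (SD, n = 5) in control clones to 10.60 ± 0.30 (SD, n = 5), by 0.69 on the log2 scale (limma adjusted p = 0.0166). CENPU 4 at 11.07 was level with control 1 at 11.02, so the groups overlapped. SDC1, the epithelial syndecan, rose by 0.48 (limma adjusted p = 0.0331), with CENPU 7 at 10.23 below control 4 at 10.33. It did not pass without CENPU 5, CENPU 13 or any of controls 1, 2, 3 and 5, where the difference was 0.41 to 0.50. Without control 2, CENPU 7 and CENPU 13 together, neither SDC4, at -0.69, nor SDC1, at 0.56, passed, and with the span trend removed SDC1, at 0.43, did not. Neither SDC2, at 0.05, nor CD44, at 0.26, passed.

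Among 21 measured genes of matrix that binds fibronectin and of matrix assembly, FBN2 rose, BMP1 fell and 19 did not pass, with a median of 0.09. FBN2, a fibrillin of microfibrils, was 8.94 ± 0.50 (SD, n = 5) with CENPU and 7.72 ± 0.30 (SD, n = 5) without, groups that did not overlap, a log2 difference of 1.22 (limma adjusted p = 0.0102). It kept its call without control 2, CENPU 7 and CENPU 13, at 0.82. BMP1, the protease that trims procollagen, was lower by 0.42, at 6.95 ± 0.09 (SD, n = 5) against 7.37 ± 0.20 (SD, n = 5) (limma adjusted p = 0.0318). Without CENPU 5, CENPU 7, CENPU 13 or control 2, 3 or 5 it did not pass, at differences of -0.44 to -0.35, nor without control 2, CENPU 7 and CENPU 13 together, at -0.38. Tenascin-C (TNC) had a difference of -0.44 and the crosslinking enzyme gene LOXL2 one of -0.13, and neither passed.

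Of 13 measured focal adhesion genes 2 rose, 0 fell and 11 did not pass, with a median of 0.25. PTK2, the focal adhesion kinase gene, was 6.98 to 7.81 in CENPU clones and 6.66 to 6.91 in control clones, a difference of 0.61 (limma adjusted p = 0.0411). Its deviations followed the span trend at 0.95, the difference was 0.40 with the trend removed and 0.34 without control 2, CENPU 7 and CENPU 13, and it passed in neither fit. It also did not pass without CENPU 5, CENPU 7, CENPU 13 or any single control, at 0.51 to 0.64. TLN2, a talin that links integrins to actin, rose by 0.45 (limma adjusted p = 0.0196), with CENPU 4 at 6.81 and the other CENPU clones at 6.37 to 6.41, and did not pass without control 4. With the span trend removed its difference was 0.24, and without control 2, CENPU 7 and CENPU 13 it was 0.51, and it passed in neither fit. Vinculin (VCL) and talin 1 (TLN1), at 0.46 and 0.34, did not pass.

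The genes around vimentin that passed were linkers, and other linkers of the list did not pass. None of the measured keratin, lamin and nestin genes of the list passed, with KRT18 at -0.21 and NES at 0.21. KRT18 has 2 named rows, and the value is that of the row of higher mean. The spectraplakins MACF1 and DST, giant proteins that join filaments, microtubules and actin, both rose. MACF1 was 7.40 to 8.72 in CENPU clones and 6.23 to 7.23 in control clones, a difference of 1.28 (limma adjusted p = 0.0143), and its deviations followed the span trend at 0.94. DST rose by 0.93 (limma adjusted p = 0.00918) from 4.96 ± 0.18 (SD, n = 5) to 5.88 ± 0.37 (SD, n = 5). Its deviations followed the span trend at 0.86. The other 14 of 16 measured genes did not pass, among them the linkers PLEC, EPPK1 and DSP, at -0.10, -0.02 and 0.91. Without control 2, CENPU 7 and CENPU 13, DST passed at 0.69 and MACF1, at 0.80, did not.

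None of 20 measured genes of epithelial-mesenchymal transition passed in limma, with 5 at an unadjusted p under 0.05 and a median log2 difference of -0.05. With 10.1% of all genes passing, the absence of calls among 20 genes does not set this list apart. The transcription factor genes that drive the transition, ZEB1, ZEB2, SNAI1, SNAI2, TWIST1 and TWIST2, differed by 0.04, -0.20, -0.20, -0.17, -0.07 and -0.03. SNAI2, for example, had means of 9.12 ± 0.51 (SD, n = 5) with CENPU and 9.28 ± 0.30 (SD, n = 5) without. EPCAM, an epithelial adhesion gene, had the highest difference of the list, 0.85, with 5.97 in CENPU 7 and 7.62 in CENPU 5 (limma adjusted p = 0.0839). The cadherin genes CDH1 and CDH2 had no named row here. OCLN differed by 0.59 and AXL and S100A4 by 0.42 each, and none of them passed. Of the 20 differences, 8 were positive and 12 negative. The transcription factor genes are named as the core of the list, and every gene here was named after its value was seen.

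Among 23 measured genes of metalloproteinases and pericellular proteolysis, the targets and neighbours of TIMP1, 2 fell, 0 rose and the remaining 21 missed the threshold (median -0.05). MMP17, a membrane-type metalloproteinase, was 6.78 to 7.25 in CENPU clones and 7.28 to 7.85 in control clones, a log2 difference of -0.55 (limma adjusted p = 0.0233). It did not pass without CENPU 5, CENPU 13 or control 2, 3 or 4, at -0.55 to -0.48, nor without control 2, CENPU 7 and CENPU 13 together, at -0.45. CTSL, the lysosomal protease cathepsin L, fell by 0.57 (limma adjusted p = 0.0327), and CENPU 13 at 7.72 lay above control 5 at 7.69. Its call was lost without CENPU 5 or any of controls 1 to 4, at -0.59 to -0.52, and with the span trend removed, at -0.48. CD63, which encodes a tetraspanin that binds TIMP1, differed by -0.23, the collagenase gene MMP1 by 0.23 and MMP14 by -0.02, and these did not pass.

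Of 12 measured genes for partners of IQGAP1, DIAPH1 and AKAP9 rose, 0 fell and 10 did not pass, with a median of 0.20. AKAP9, a scaffold of centrosome and Golgi, was 4.25 to 5.26 in CENPU clones and 3.69 to 4.03 in control clones, a difference of 0.91 (limma adjusted p = 0.0149), and did not pass without control 2, CENPU 7 and CENPU 13, at 0.84. All control clones and CENPU 1, CENPU 4 and CENPU 7 lay below the array medians for AKAP9, and its deviations followed the span trend at 0.59. DIAPH1, a formin that extends actin filaments, rose by 0.62 (limma adjusted p = 0.0348), with CENPU 5 at 8.62 and control 1 at 8.63. DIAPH1 did not pass without CENPU 4, CENPU 7, CENPU 13 or control 2, 3 or 4, at 0.49 to 0.65. It passed neither without control 2, CENPU 7 and CENPU 13, at 0.44, nor with the span trend removed, at 0.43. CDC42 and RAC1 had no named row here.

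Of 10 measured genes of the TGF-beta pathway, a known inducer of fibronectin, SKI fell, 0 rose and the remaining 9 missed the threshold (median 0.08). SKI, a co-repressor that binds SMAD proteins, was 7.87 to 8.17 in CENPU clones and 8.42 to 8.58 in control clones, a difference of -0.49 (limma adjusted p = 0.00808). SKI was -0.58 and passed without control 2, CENPU 7 and CENPU 13. Neither SMAD3, at 0.10, nor SMAD7, at -0.24, passed. The genes TGFB1, TGFB2 and TGFB3 and the receptor genes of the list had no named row here.

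Markers of fibroblasts, which also make fibronectin and vimentin, did not differ in limma. The measured ones were DCN, LUM and THY1, 3 of 10 listed, at differences of -0.07 to 0.09. Their mean level was 3.66 to 4.03 in CENPU clones and 3.73 to 3.93 in control clones. DCN and LUM were below the array medians in both groups. THY1 was above them, at 5.91 in CENPU clones and 5.83 in control clones. Of the epithelial markers, KRT8, KRT18, KRT19 and EPCAM were measured, and none passed. The prostate genes KLK3 and KLK2 are driven by the androgen receptor and low in PC-3. They averaged 5.57 and 5.59 in CENPU clones and 5.61 and 5.59 in control clones, above the array medians. For these genes and THY1, a level above the medians does not show expression, as signal over background was not assessed. Endothelial and leukocyte markers, 3 of 4 and 2 of 5 measured, gave no call in limma either. None of the 14 marker genes measured had passed, and 1 had an unadjusted p under 0.05. For so few genes this is close to the 10.1% of all genes that passed.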

How the data were processed

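The study hybridised RNA of 10 PC-3 clones to Affymetrix arrays. The authors deposited 1 table of 53617 rows with log2 expression values from 1.65 to 15.0, made with Partek and RMA per the submitters' processing notes, with no version. The log2 scale was inferred from that range, and steps after RMA are not given in the sources used here. RMA removes a change shared by most genes.

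Rows to which the platform table gives a single gene symbol were used, 16098 in number (14884 genes), with symbols updated through RefSeq gene IDs. The other 37519 rows, with no symbol or with several, were not used in gene counts. A gene with several rows was represented by its row of highest mean. Groups came from the sample titles. Rows were fitted with limma 3.58.1 in R 4.3.3 (lmFit, eBayes), with Benjamini-Hochberg adjustment over the 16098 rows, and passed at an adjusted p under 0.05. The fit was tested on simulated data. Each clone is 1 isolate, and the spread behind every p-value is that among isolates. Array number limits precision.

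The members, the lists and the tests were chosen with earlier results of these data known. Named genes were the 4 members and their paralogues, list genes that passed, and the 4 genes most correlated with each member; others were named after their values were seen. Alternatives were quantile normalization, median centring, removal of the span trend by loess, a trended and robust eBayes, array weights, a filter on rows with a mean of at least 5, all rows, a threshold of 0.01 or 0.10, the clone number as a block, other rows of the gene, leaving out each clone, and leaving out control 2, CENPU 7 and CENPU 13. Protein sequences were not used here, and the genes of 1 list, counted in the totals, are not reported here.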

Additional observations from a re-analysis of the deposited data

Results flagged for a closer look

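In 3 of 60 sets of 5 clones examined, 1 clone stood apart from the rest of its group, by a gap to the nearest clone of over 0.710 of the whole range. Chance alone does this in about 5% of sets. IQGAP2 was 4.57 in CENPU 5, and the next CENPU clone was at 3.76. SDC1 was 10.23 in CENPU 7, and the next was at 10.53. TLN2 was 6.81 in CENPU 4, and the next was at 6.41. None of the 3 involved FN1, VIM, TIMP1 or IQGAP1.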

How the results depend on the processing

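The log2 differences of the 4 genes kept their direction in all alternatives. Their groups stayed apart after quantile normalization, median centring and removal of the span trend. Leaving out clones cannot make groups overlap that are apart with all clones, so those alternatives do not bear on overlap. FN1 was 1.28 without control 2, CENPU 7 and CENPU 13, its lowest control and highest CENPU clones, so that leaving them out had to lower it. Row 16712274, which is named VIM but may detect VIM-AS1, gave 1.17. Leaving out 1 clone gave 1.92 to 2.46 for FN1, 1.52 to 1.90 for IQGAP1, 0.68 to 0.80 for VIM and -0.93 to -0.72 for TIMP1. Clone numbers 1, 4 and 5 occur in both groups, and deviations of same-numbered clones correlated at -0.375, 0.104 and 0.0249. Such correlations, between single arrays, cannot decide whether clones that share a number are paired. With the replicate block, which rests on these 3 numbers, FN1 was 1.24, and 55 genes passed (22 higher, 33 lower), with 0 list genes higher and 0 lower (limma, 32 list genes at an unadjusted p under 0.05). Of all genes, 1504 passed (791 higher, 713 lower), and more were lower than higher after median centring (585 higher, 758 lower), quantile normalization (754 and 952) and removal of the span trend (763 and 797). The count was 470 (209 and 261) without control 2, CENPU 7 and CENPU 13, 253 (130 and 123) at a threshold of 0.01 and 2588 (1408 and 1180) at 0.10. Array weights gave 1303 higher genes and 17 higher list genes. Leaving out 1 clone gave 613 (without control 4) to 2471 (without CENPU 1), with 297 to 1463 higher and 316 to 1008 lower. List genes, 11 higher and 5 lower, were 6 to 21 and 2 to 11 without 1 clone. They were 6 and 8 with the span trend removed, 4 and 4 without the 3 clones, 1 and 1 at a threshold of 0.01 and 22 and 8 at 0.10. All 16 list genes that passed kept their direction in every alternative, and each lost its call in at least 1. After quantile normalization 15 of the 16 passed, after median centring 12, with the span trend removed 10 (SDC1, TLN2, PTK2, CTSL and DIAPH1 were among those lost), and without the 3 clones 5 (among them FBN2, DST, CTSL and SKI). Arrays carry no depth, and signal over background was not assessed here.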

Other observations

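Several listed genes had log2 differences as large as those of genes that passed but varied too much between clones to pass in limma. They were named after their values were seen. The collagenase gene MMP13 differed by 1.08, from 4.36 in CENPU 1 to 6.90 in CENPU 13 (limma adjusted p = 0.147). SMAD2, a transducer of TGF-beta signals, differed by 0.93 (limma adjusted p = 0.0507), and ADAM9, a membrane protease gene, by 0.91 (limma adjusted p = 0.0777). LTBP1, which holds latent TGF-beta in the matrix, differed by 0.82 (limma adjusted p = 0.0860), and the desmosome gene DSP by 0.91 (limma adjusted p = 0.0988). KDR, listed as an endothelial marker, was 10.51 in CENPU 7 and 10.15 in CENPU 13, against 6.74 to 7.95 in the other CENPU clones and 7.56 to 8.64 in the controls.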
